A study of Mus musculus with 45 samples.

Results

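Nrf2, encoded by Nfe2l2, is a transcription factor that is held at low levels by Keap1, which marks it for degradation. When oxidants or electrophiles modify Keap1, Nrf2 accumulates, pairs with a small Maf protein and binds antioxidant response elements in the promoters of genes for glutathione synthesis, thioredoxin recycling and detoxification. Ethanol metabolism is a known source of oxidants, and in the brain these genes are expressed most in glia. The genes described here are Nfe2l2 itself and 9 of its well-known targets, Nqo1, Hmox1, Gclc, Gclm, Osgin1, Srxn1, Txnrd1, Slc7a11 and Gsr. They were taken by symbol, as every probeset (a group of probes on the array that reads 1 transcript) that the platform annotation gives to one of these symbols alone. This gave 20 probesets of 10 genes, out of 45037 probesets and 18193 genes with a symbol of their own.

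The tissue was the nucleus accumbens (NAC), part of the ventral striatum, dissected from adult C57BL/6J males and run as 1 mouse per array. Chronic intermittent ethanol (CIE) mice had 4 cycles of 4 days in vapor chambers for 16 h a day at 10 to 13 mg ethanol per l of air, each cycle opened by an injection of ethanol (1.6 g/kg) with pyrazole (1 mmol/kg), which blocks alcohol dehydrogenase, and the cycles were 7 days apart. Air-exposed mice (Ctrl) were given saline with the same pyrazole, so both groups carried the inhibitor. After the last session, 6 CIE and 6 Ctrl mice were taken at once (0 h), 5 CIE and 5 Ctrl mice after 8 h, 5 CIE and 6 Ctrl mice after 72 h, and 6 CIE and 6 Ctrl mice after 7 d. Values are log2 expression values from RMA (a summary of each probeset's probes after normalization), changes are differences of group means (CIE minus Ctrl) with standard errors (SE) from limma, a linear model fitted to each probeset, and a probeset was called when its p adjusted over all 45037 probesets was 0.01 or less.

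The arrays carried the markers of striatal tissue, with a mean over the medium spiny neuron markers of 11.64 to 12.33 in CIE and 12.03 to 12.3 in Ctrl mice at 0 h. CIE 0 h replicates 72, 5 and 67 had the highest means of the cortical pyramidal neuron markers, 9.998, 9.786 and 9.542, against 7.406 to 9.188 in Ctrl mice at 0 h, and the member results and list calls that rest on 0 h were also fitted without these mice. The mean over the microglial markers was 9.152 to 9.509 in CIE and 9.442 to 9.957 in Ctrl mice at 0 h. The mean over 2 blood markers was 5.268 to 5.496 in CIE and 5.656 to 5.828 in Ctrl mice at 8 h, without overlap. The changes of these 2 genes at 8 h were unlike, at -0.685 and -0.0107. Their mean levels lay above those of only 21.7% (Hba-a1) and 41.7% (Alas2) of probesets. The part of these cell types in the results was not tested. In bulk tissue, fewer cells of a type and less RNA per cell cannot be told apart.

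Srxn1 and Osgin1, the members whose difference between CIE and Ctrl was called, are shown by the 150 bases before their annotated RefSeq start sites (GRCm38.p6, plus strand, 5′ to 3′). Capitals mark TGANTCA, the core shared by AP-1 sites and many antioxidant response elements, together with the GC that follows it on either strand in the longer form TGANTCAGC.
Srxn1, chr2:152105374-152105523: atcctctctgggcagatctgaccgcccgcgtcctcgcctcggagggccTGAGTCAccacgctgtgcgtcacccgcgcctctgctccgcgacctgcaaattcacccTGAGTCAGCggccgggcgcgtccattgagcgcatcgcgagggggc
Osgin1, chr8:119436997-119437146: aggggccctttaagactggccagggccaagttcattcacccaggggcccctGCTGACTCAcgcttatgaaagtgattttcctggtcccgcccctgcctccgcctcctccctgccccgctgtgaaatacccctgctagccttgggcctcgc
In Srxn1 the matches began at positions -45 and -102 from the start site. In Osgin1 the match began at position -97 and lay on the opposite strand in its longer form. This Osgin1 start site lies inside the annotated span of the gene.

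Promoter windows of 300 bases (250 before the start site and 50 after it) were found for 7 of the 10 genes, namely Nfe2l2, Nqo1, Gclm, Osgin1, Srxn1, Txnrd1 and Slc7a11. Of 32851 RefSeq windows of this length, 7.81% held TGANTCA on either strand, and among the members only Srxn1 and Osgin1 did. The longer TGANTCAGC, searched after these sequences had been seen, was in 1.19% of all windows and again in Srxn1 and Osgin1. The other form of the element that was searched, TGACNNNGC on either strand, was in 12.4% of all windows and in those of Nfe2l2, Srxn1, Gclm and Txnrd1. It is shown in capitals for the 3 of these in which it lay before the start site, each on the strand of its gene, with 10 bases on either side.
Nfe2l2, chr2:75704885-75704913, minus strand: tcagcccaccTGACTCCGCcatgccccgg
Gclm, chr3:122245413-122245441, plus strand: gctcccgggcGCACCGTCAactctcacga
Txnrd1, chr10:82859104-82859132, plus strand: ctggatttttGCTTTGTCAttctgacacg
The start sites of Gclm and Txnrd1 used here lie inside the annotated spans of their genes, as does the Txnrd1 match. A match to these letters is a description of the sequence and not a bound site.

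The first comparison, at 0 h, was made directly after vapor exposure ended. Srxn1 (chr2:152105524-152111376), which encodes sulfiredoxin, the enzyme that restores overoxidized peroxiredoxins, rose in CIE mice. Its brightest probeset, 1426875_s_at, read 10.39, 10.47, 10.55, 10.58, 10.65 and 10.12 in the 6 CIE mice, against 10.22, 9.95, 10.13, 10.02, 10.26 and 10.03 in the 6 Ctrl mice. All but one of the CIE values, that of replicate 72, lay above the highest Ctrl value. The change was 0.358 (SE 0.083, 1.28-fold, adjusted p = 0.00732), and it was above 0 in each of the 5 hybridization sets that held both groups (0.321 to 0.611). The sets are not given by the labels and were inferred from exactly equal values that arrays share. Among all probesets, 1.59% were called at 0 h, and this was the only call among the 20 of the Nrf2 genes. Without CIE replicates 5, 67 and 72 the change was 0.433 (adjusted p = 0.00924).

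The call on Srxn1 at 0 h stood close to its threshold. With the hybridization sets as a block the change was 0.387 and the adjusted p 0.0173. The adjusted p lay above 0.01 when any one of CIE replicates 5, 17, 26, 43 and 67 or Ctrl replicates 30, 38, 48 and 78 was left out (changes of 0.321 to 0.372, adjusted p of 0.0121 to 0.029), and below it without CIE replicate 72, Ctrl replicate 20 or Ctrl replicate 74. The suffix s in the name of this probeset marks probes that can match more than one transcript. The other Srxn1 probesets read in the same direction without a call, with changes of 0.118 (1451680_at, SE 0.108), 0.223 (1425351_at, SE 0.106) and 0.129 (1419942_at, SE 0.0631).

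**Figure D1:**
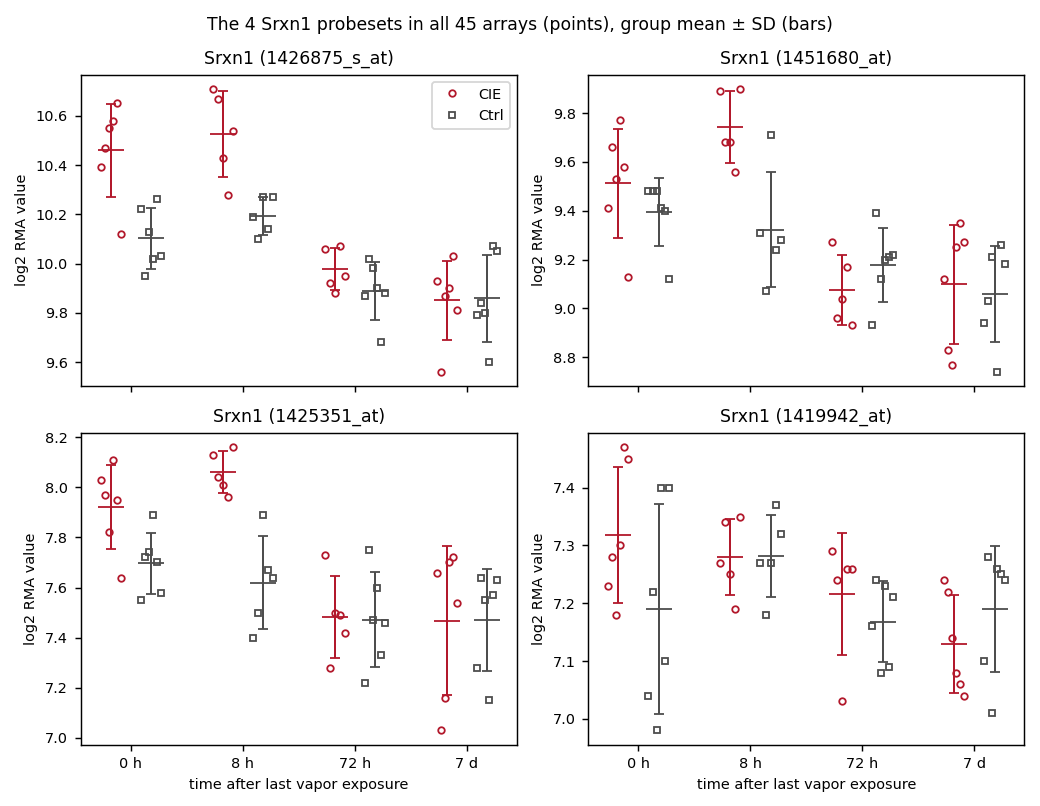
The plot shows the log2 RMA values of the 4 Srxn1 probesets in every array (points) with the group mean ± SD (bars), CIE left of Ctrl at each of 4 evenly spaced times. In all 4 probesets the CIE means at 0 h and 8 h lie above those at 72 h and 7 d, least so in 1419942_at, and at 8 h every CIE value of 1426875_s_at (10.28 to 10.71) and of 1425351_at (7.957 to 8.165) lies above every Ctrl value.

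Osgin1 (chr8:119425882-119446257), an oxidative stress induced growth inhibitor, read 6.04, 5.93, 6.1, 5.95, 6.07 and 6.17 in CIE mice at 0 h, against 5.65, 5.83, 5.81, 5.9, 5.66 and 5.92 in Ctrl mice. Every CIE value lay above every Ctrl value, as was so for 1 of the 20 probesets and for 0.777% of all probesets at this time. The change of 0.247 (SE 0.0635, adjusted p = 0.0172) did not pass the threshold, and without CIE replicates 5, 67 and 72 it was 0.195 (adjusted p = 0.291).

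The remaining members showed no common direction at 0 h. Of the 20 probesets, 9 had a change above 0, against 51.8% of all probesets. At an unadjusted p of 0.05 or less, 5 were higher in CIE mice (9.11% of all probesets were) and 2 were lower (7.42% of all). The 5 were 3 probesets of Srxn1, that of Osgin1 and the dim second probeset of Nfe2l2, and the 2 lower ones were both of Txnrd1 (chr10:82833951-82897724), the cytosolic thioredoxin reductase. The brightest Txnrd1 probeset, 1421529_a_at, read 10.44 to 10.71 in CIE and 10.53 to 10.86 in Ctrl mice (change of -0.108, SE 0.0529, adjusted p = 0.296). Hmox1, which encodes the inducible heme oxygenase, read 6.118 to 6.517 in CIE and 5.969 to 6.506 in Ctrl mice, so that the groups overlapped. The median change over the 10 genes, each at its brightest probeset, was -0.0443, against 0.0167 over all 18193 genes.

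**Figure D2:**
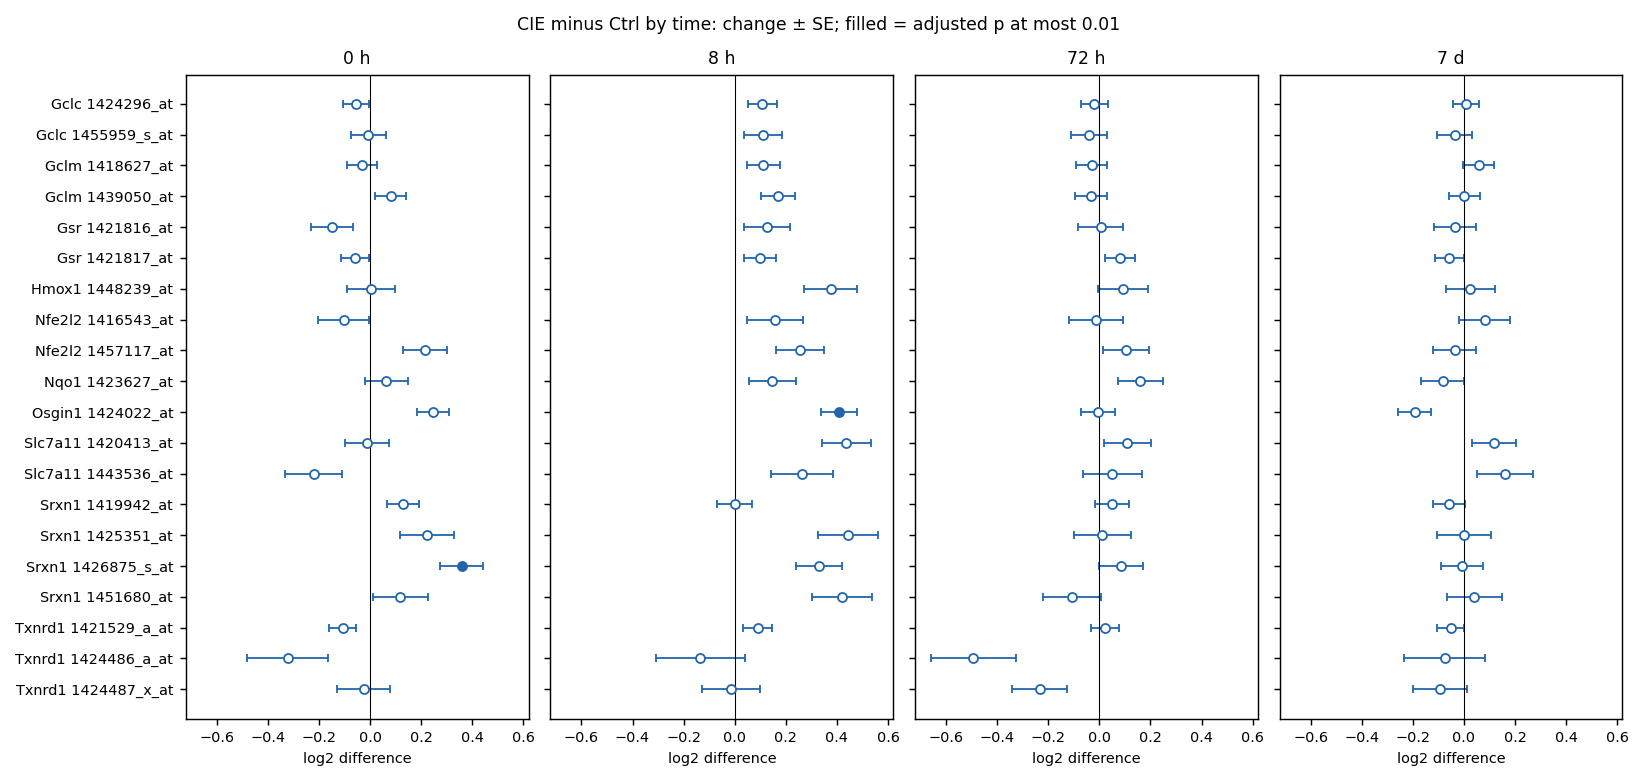
The plot gives the change (CIE minus Ctrl, log2 scale) with its SE for each of the 20 probesets at the 4 times, on a common horizontal axis. Filled points mark the calls, Srxn1 1426875_s_at at 0 h (0.358) and Osgin1 at 8 h (0.409), and at 8 h all but 2 points lie at or right of 0.

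At 8 h, in early withdrawal, Osgin1 rose in CIE mice. Its values were 6.21, 6.34, 6.12, 6.01 and 5.97 in the 5 CIE mice, against 5.77, 5.7, 5.63, 5.68 and 5.83 in the 5 Ctrl mice. The groups did not overlap. The change was 0.409 (SE 0.0695, 1.33-fold, adjusted p = 0.00214; blocked by set 0.00565), above 0 in each of 5 sets (0.143 to 0.642). It was the only member probeset called at this time, when 0.0622% of all probesets were. Leaving out CIE replicate 1 or 15 or Ctrl replicate 42 or 50 put the adjusted p between 0.0107 and 0.0135, with changes of 0.356 to 0.399.

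Slc7a11 (chr3:50364936-50499087), the light chain of the cystine and glutamate exchanger that brings in cystine for glutathione, came next. Its probeset 1420413_at read 6.84, 6.78, 6.73, 6.74 and 6.9 in CIE mice at 8 h, against 6.59, 6.55, 6.13, 6.28 and 6.27 in Ctrl mice. The lowest CIE value lay above the highest Ctrl value. The change of 0.437 (SE 0.0946, 1.35-fold, adjusted p = 0.0284) passed 0.05 and not 0.01, and it was above 0 in each of 5 sets (0.237 to 0.632). The other, slightly brighter Slc7a11 probeset, 1443536_at, read 6.658 to 7.058 in CIE and 6.485 to 6.772 in Ctrl mice (change of 0.264, SE 0.121, adjusted p = 0.617).

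Srxn1 at 8 h had values of 10.71, 10.67, 10.43, 10.28 and 10.54 in CIE mice at probeset 1426875_s_at, against 10.19, 10.1, 10.27, 10.14 and 10.27 in Ctrl mice. The groups did not overlap there, nor at 1425351_at. The changes at these probesets were 0.33 (SE 0.0909, adjusted p = 0.13) and 0.443 (SE 0.116, adjusted p = 0.097), that at 1451680_at was 0.419 (SE 0.118, adjusted p = 0.146), and that at the dimmest, 1419942_at, was 0 to 2 decimals (SE 0.0691). In all, 4 of the 20 probesets had every CIE value above every Ctrl value at 8 h, those of Osgin1, Slc7a11 1420413_at and these 2 of Srxn1, against 0.953% of all probesets.

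Hmox1 (chr8:75093618-75100593) read 6.57, 6.67, 6.64, 6.64 and 6.18 in CIE mice at 8 h, against 6.19, 6.16, 5.97, 6.19 and 6.29 in Ctrl mice. All CIE values but that of replicate 51 lay above the Ctrl values. The change was 0.376 (SE 0.104, 1.3-fold) with an adjusted p of 0.13. The mean over the 2 blood markers, given above, was lower in CIE mice at this time, and the part of blood in these values was not tested.

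**Figure D3:**
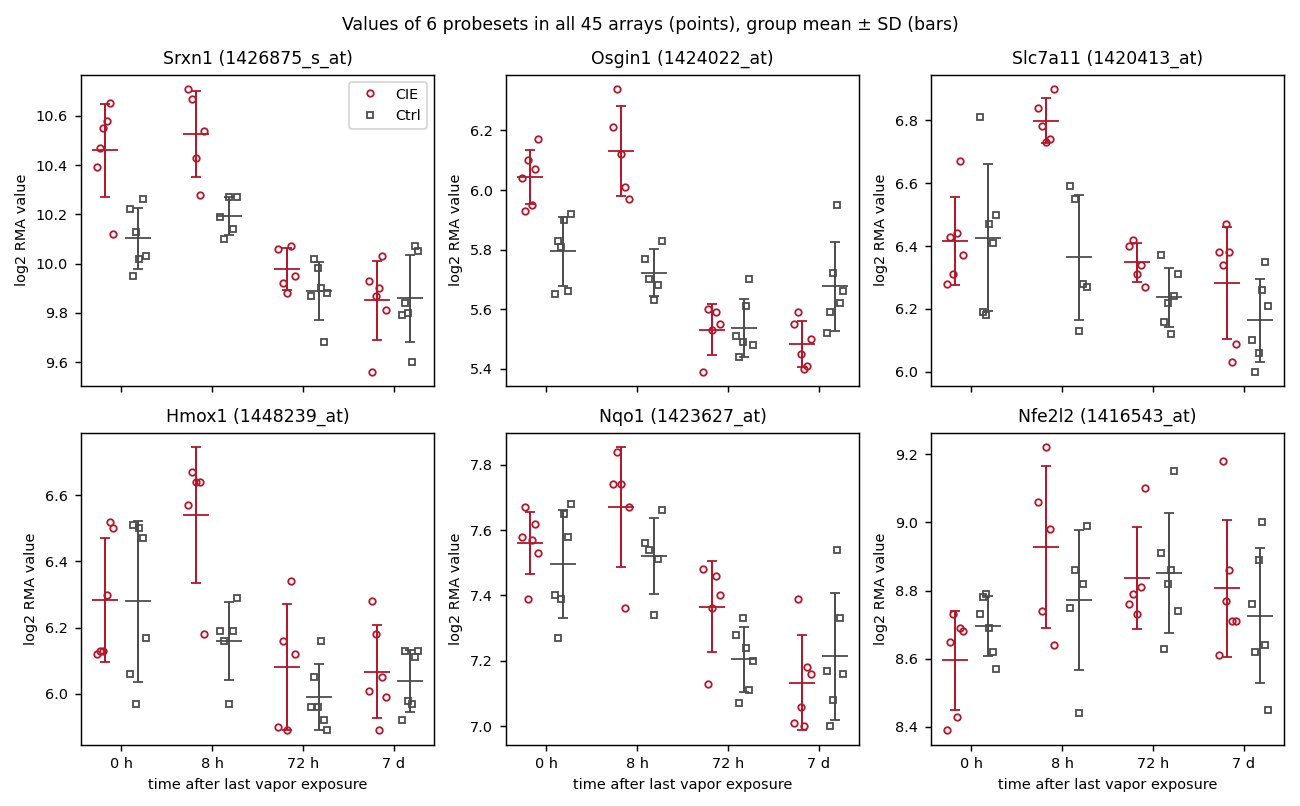
The plot shows log2 RMA values of 6 probesets in every array (points) with the group mean ± SD (bars), CIE left of Ctrl at each of 4 evenly spaced times, with a vertical scale of its own for each probeset. CIE and Ctrl do not overlap at 0 h for Osgin1 and at 8 h for Osgin1, Srxn1 and Slc7a11, while 1 CIE value of Srxn1 lies among the Ctrl values at 0 h, and the mean of Nqo1 is lower at 72 h and 7 d than at 0 h in both groups.

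The enzymes of glutathione synthesis and recycling had smaller changes at 8 h. Gclc (chr9:77754535-77794489), the catalytic subunit of glutamate cysteine ligase, read 11.23 to 11.44 in CIE and 11.15 to 11.36 in Ctrl mice at its brightest probeset, 1424296_at (change of 0.108, SE 0.0557, adjusted p = 0.694). Gclm (chr3:122245487-122267215), the modifier subunit of the same ligase, had changes of 0.111 (1418627_at, SE 0.0647) and 0.169 (1439050_at, SE 0.0662, adjusted p = 0.454). Gsr (chr8:33653238-33698162), the glutathione reductase, had changes of 0.0991 (1421817_at, SE 0.0613) and 0.127 (1421816_at, SE 0.0902). Nqo1 (chr8:107388225-107403205), a quinone reductase and a common readout of Nrf2 activity, read 7.356 to 7.843 in CIE and 7.335 to 7.664 in Ctrl mice (change of 0.147, SE 0.0918, adjusted p = 0.801). None of these passed the test.

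Nfe2l2 itself (chr2:75675513-75704663) passed the test at its brightest probeset, 1416543_at, at none of the 4 times. It read 8.388 to 8.73 in CIE and 8.573 to 8.786 in Ctrl mice at 0 h, and 8.641 to 9.224 in CIE and 8.442 to 8.991 in Ctrl mice at 8 h, with changes of -0.104 (SE 0.101) and 0.158 (SE 0.11). At 72 h and 7 d its changes were -0.0146 (SE 0.106) and 0.0806 (SE 0.101). The second probeset, 1457117_at, was dim, with a mean level above that of only 15.4% of probesets, and had changes of 0.214 (SE 0.0856, adjusted p = 0.171) at 0 h and 0.256 (SE 0.0938, adjusted p = 0.388) at 8 h. As background, Nrf2 is controlled mainly through the stability of its protein, which arrays do not measure.

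As a count, 18 of the 20 probesets had a change above 0 at 8 h, one of them Srxn1 1419942_at at almost exactly 0, against 50.4% of all probesets. The 2 below 0 were the dim Txnrd1 probesets 1424486_a_at and 1424487_x_at. At an unadjusted p of 0.05 or less, 9 probesets of 6 genes were higher in CIE mice (3.88% of all probesets were) and 0 were lower (3.54% of all). Each of the 10 genes had a change above 0 at its brightest probeset, from 0.0893 for Txnrd1 to 0.409 for Osgin1, with a median of 0.152 against 0.00351 over all genes. The marker medians at 8 h were 0.0833 for microglia (6 of 10 above 0), 0.0235 for oligodendrocytes (7 of 9), 0.0165 for astrocytes (6 of 11) and -0.0246 for endothelium and pericytes (5 of 11). They were 0.183 for choroid plexus and ependyma (4 of 5) and 0.118 for cortical pyramidal neurons (5 of 6). For medium spiny neurons the median was -0.0387 (5 of 11) and for blood -0.348 (0 of 2). The part of these cell types in the changes of the 10 genes was not tested. Probesets of a gene read the same transcripts and are not independent of each other. The members were chosen with earlier results of these data known, so these counts are descriptions.

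At 72 h and 7 d none of the 20 probesets was called by limma, and of all 45037 probesets 0.0% were called at each time. At an unadjusted p of 0.05 or less, 2 of the 20 differed at 72 h and 1 at 7 d, against 3242 and 1056 of all probesets. The 2 at 72 h were the dim Txnrd1 probesets, with changes of -0.494 (1424486_a_at, SE 0.166, adjusted p = 0.673) and -0.234 (1424487_x_at, SE 0.109, adjusted p = 0.682), while the bright one had a change of 0.0226 (SE 0.0555). Every CIE value of 1424487_x_at (3.68 to 3.904) lay below every Ctrl value (3.93 to 4.141) at 72 h, as was so for 0.389% of all probesets, and its mean level was above that of only 6.7% of probesets. Changes above 0 were found in 11 of the 20 probesets at 72 h (59.4% of all) and in 8 at 7 d (47.6% of all).

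The one at 7 d was Osgin1, which read 5.55, 5.59, 5.45, 5.4, 5.41 and 5.5 in CIE mice, against 5.52, 5.59, 5.72, 5.95, 5.62 and 5.66 in Ctrl mice. Here 4 of the 6 CIE values lay below the lowest Ctrl value. The change was -0.193 (SE 0.0635, unadjusted p = 0.00406) and its adjusted p was 1. At 72 h the change was -0.00654 (SE 0.0666).

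The difference of the CIE effect between times was called for Osgin1 alone among the members. Its effect at 7 d minus that at 0 h was -0.441 (adjusted p = 0.00845; blocked by set 0.0498), where 0.2% of all probesets were called. Its effect at 8 h minus the mean of those at 72 h and 7 d was 0.509 (adjusted p = 0.00152; blocked by set 0.00505), where 0.0289% of all probesets were called. The effects on Osgin1 at 8 h and at 0 h differed by 0.162, which did not pass. For Srxn1 1426875_s_at the effect at 7 d minus that at 0 h was -0.366 (adjusted p = 0.158). For Slc7a11 1420413_at the effect at 8 h minus that at 0 h was 0.449 (adjusted p = 0.375). In the F test of CIE against Ctrl over the 4 times, Osgin1 (adjusted p = 0.000156) and Srxn1 1426875_s_at (adjusted p = 0.00806) were called, against 0.901% of all probesets. With the sets as a block the call on Srxn1 was lost (adjusted p = 0.0251), and in the unblocked test Slc7a11 1420413_at had an adjusted p of 0.0313.

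Levels were also followed over time within each group, as the mean of 72 h and 7 d minus 0 h. Within CIE mice, 5 of the 20 probesets fell, of 3 genes, against 1.37% of all probesets. Osgin1 fell by 0.534 (SE 0.0559, adjusted p = 1.56e-08), with CIE means of 6.042, 6.132, 5.532 and 5.484 in the order of the 4 times. Srxn1 fell by 0.549 at 1426875_s_at (SE 0.0731, adjusted p = 1.93e-06), with means of 10.46, 10.52, 9.973 and 9.849 in time order. It fell by 0.445 at 1425351_at (adjusted p = 0.00169) and fell by 0.427 at 1451680_at (adjusted p = 0.00311). At these called probesets of both genes the CIE mean at 8 h was not below that at 0 h. Srxn1 1419942_at, which was not called, had CIE means of 7.318 at 0 h and 7.281 at 8 h. The adjusted p of 1451680_at lay above 0.01 without CIE 0 h replicate 17 (0.0114) or 43 (0.0145).

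Nqo1 fell by 0.312 within CIE mice (SE 0.0738, adjusted p = 0.00569; blocked by set 0.0133), with means of 7.56, 7.669, 7.365 and 7.132 in time order. This call was lost without CIE 0 h replicate 5, 17, 43, 67 or 72, CIE 72 h replicate 29 or CIE 7 d replicate 7 or 37 (changes of -0.317 to -0.283, adjusted p of 0.0101 to 0.0184). Without CIE 0 h replicates 5, 67 and 72 together, 3 of the 5 falls passed: Nqo1 then had a change of -0.294 (adjusted p = 0.0895) and Srxn1 1425351_at one of -0.493 (adjusted p = 0.0125). Both Gclm probesets had smaller changes, -0.164 (1418627_at, adjusted p = 0.0484) and -0.182 (1439050_at, adjusted p = 0.0305). The bright Nfe2l2 probeset differed in the other direction, by 0.227 (SE 0.0888, adjusted p = 0.133). Marker changes here were above 0 for 9 of 10 of microglia (median 0.26) and 8 of 9 of oligodendrocytes (0.28). They were so for 8 of 11 of endothelium and pericytes (0.142) and 6 of 11 of astrocytes (0.0375). The counts were 10 of 11 for medium spiny neurons (0.128) and 2 of 2 for blood (0.284). They were 1 of 6 for cortical pyramidal neurons (-0.271) and 0 of 5 for choroid plexus and ependyma (-0.202). The part of these cell types in the falls was not tested.

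Within Ctrl mice 0 of the 20 probesets fell by limma at an adjusted p of 0.01 or less (0.0777% of all did), although 10 differed in either direction at an unadjusted p of 0.05 or less, against 5.8% of all probesets. Nqo1 had changes of -0.312 in CIE and -0.287 in Ctrl mice (SE 0.0726 in Ctrl mice, adjusted p = 0.107). Hmox1 had changes of -0.208 in CIE (SE 0.0833) and -0.263 in Ctrl mice (SE 0.0819), and Gclm 1418627_at had changes of -0.164 in CIE and -0.211 in Ctrl mice (SE 0.0511 in Ctrl mice, adjusted p = 0.078). Slc7a11 1443536_at had the lowest adjusted p, with a change of -0.432 in Ctrl mice (SE 0.0959, adjusted p = 0.0325). Osgin1 and Srxn1 also had lower Ctrl means at 72 h and 7 d than at 0 h. In time order the Ctrl means of Osgin1 were 5.795, 5.722, 5.539 and 5.678. Those of Srxn1 were 10.1, 10.19, 9.888 and 9.858 at 1426875_s_at and 9.396, 9.323, 9.178 and 9.058 at 1451680_at. At 1425351_at they were 7.697, 7.619, 7.472 and 7.469. The falls over both late times together were not tested between CIE and Ctrl mice. At each late time alone, the CIE effect minus that at 0 h is this comparison. It was called for no member at 72 h and for Osgin1 alone at 7 d. The difference for Osgin1 at 7 d was -0.441 (limma adjusted p = 0.00845, blocked by set 0.0498). Changes below 0 were found in 17 of the 20 probesets in CIE mice, against 50.0% of all probesets, and in 18 of 20 in Ctrl mice, against 49.7%. The median over the 10 genes was -0.135 in CIE and -0.199 in Ctrl mice, against -0.00129 and 0.00288 over all genes. Time since the session, handling and the last pyrazole injection cannot be told apart in Ctrl mice. Marker changes in Ctrl mice were above 0 for 9 of 9 of oligodendrocytes (median 0.214) and 8 of 11 of endothelium and pericytes (0.0326). They were so for 6 of 11 of astrocytes (0.0181), 4 of 10 of microglia (-0.0459) and 3 of 11 of medium spiny neurons (-0.0257). The count was 2 of 2 for blood (0.113). It was 2 of 6 for cortical pyramidal neurons (-0.0898) and 1 of 5 for choroid plexus and ependyma (-0.0626). Their part was not tested.

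**Figure D4:**
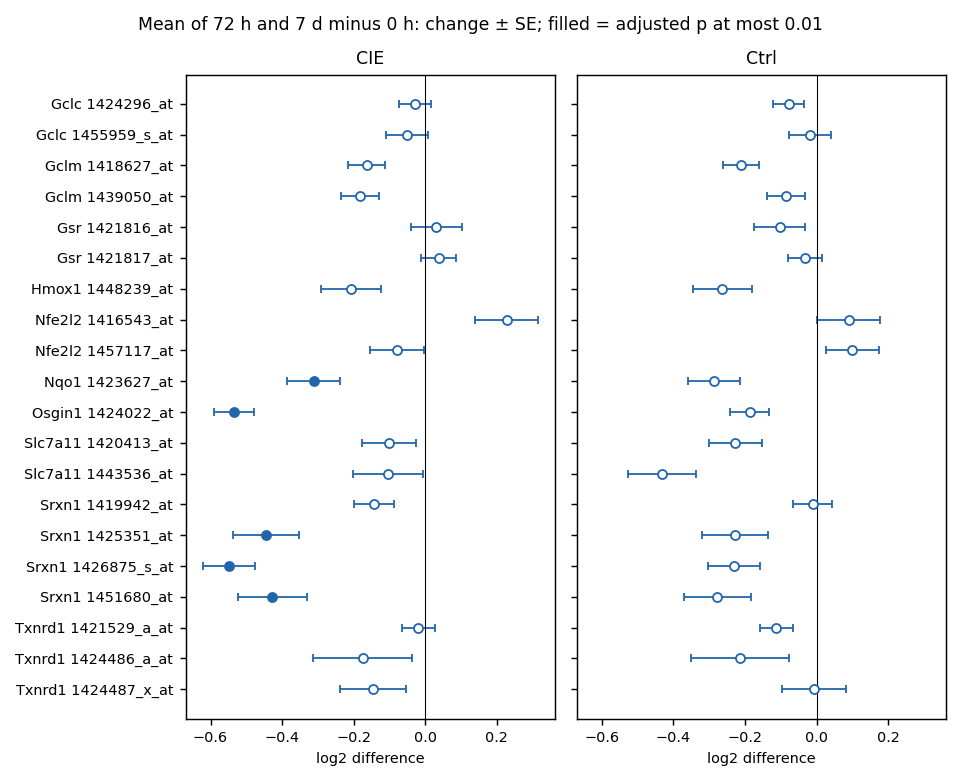
The plot gives the mean of 72 h and 7 d minus 0 h (log2 scale, with SE) for the 20 probesets, CIE left and Ctrl right, on a common horizontal axis with calls filled. The 5 calls are in CIE, for Osgin1, Nqo1 and 3 probesets of Srxn1, and most points of both groups lie left of 0.

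From 0 h to 8 h within CIE mice, none of the 20 probesets was called, against 0.633% of all probesets. Slc7a11 1420413_at had the lowest adjusted p, with a change of 0.384 (SE 0.0906, adjusted p = 0.0156; 0.434 and 0.00598 without CIE 0 h replicate 67), and CIE means of 6.416, 6.8, 6.346 and 6.282 in the order of the 4 times. The bright Nfe2l2 probeset had a change of 0.336 (SE 0.106, adjusted p = 0.0982) and Hmox1 one of 0.257 (SE 0.0992, adjusted p = 0.219). All 10 genes had a change above 0 at their brightest probeset, with a median of 0.116, against 0.00204 over all genes, and 50.6% of all probesets had a change above 0. Cell type markers differed in the same comparison. The change was above 0 in 10 of 10 microglial markers (median 0.325), 9 of 9 of oligodendrocytes (0.264), 11 of 11 of endothelium and pericytes (0.171, 1 called), 9 of 11 of astrocytes (0.134) and 10 of 11 of medium spiny neurons (0.12), and in 0 of 6 of cortical pyramidal neurons (-0.357). The part of these cell types in the changes of the 10 genes was not tested. Within Ctrl mice, the same Slc7a11 probeset had a change of -0.0651 (SE 0.0906).

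Beyond these targets, 15 genes that act on or with Nrf2 were measured. Of these, 1 rose and 1 fell at 0 h, when 1.93% of all genes were called at their brightest probeset, both small Maf proteins, the partners with which Nrf2 binds DNA. Maff read 6.412 to 7.493 in CIE and 5.964 to 6.375 in Ctrl mice (change of 0.564, SE 0.127, adjusted p = 0.00563, blocked by set 0.0207). Every CIE value lay above every Ctrl value, as was so for 0.777% of all probesets at 0 h. Mafg read 9.396 to 9.728 in CIE and 9.792 to 10.07 in Ctrl mice (change of -0.326, SE 0.0772, adjusted p = 0.00868, blocked by set 0.0241). Without CIE replicates 5, 67 and 72 neither passed (0.612 and adjusted p = 0.0371 for Maff, -0.223 and 0.31 for Mafg). At 8 h their changes were 0.268 (SE 0.139) for Maff and -0.201 (SE 0.0846) for Mafg, and neither passed. Keap1, the Nrf2 inhibitor, had a change of 0.0842 (SE 0.049) at 8 h, and Sqstm1, the autophagy receptor p62 that binds Keap1 and is itself an Nrf2 target, one of 0.273 (SE 0.119, adjusted p = 0.568). The changes of the 15 genes at 8 h ran from -0.594 to 0.273, with 6 above 0 and none called.

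The thioredoxin and peroxide list had 18 of its 21 genes measured alone, with 1 call at 0 h and 0 at 8 h. At their brightest probeset, 1.93% of all genes were called at 0 h and 0.0824% at 8 h. The call was a rise of Txnip, the thioredoxin-interacting protein that binds and inhibits thioredoxin, which read 9.16 to 9.766 in CIE and 8.713 to 9.583 in Ctrl mice (change of 0.518, SE 0.11, adjusted p = 0.00328; blocked by set 0.00051; without CIE replicates 5, 67 and 72 the change was 0.515 and the adjusted p 0.0302). At 8 h Txnip read 9.282 to 9.581 in CIE and 8.719 to 9.062 in Ctrl mice (change of 0.512, SE 0.121, adjusted p = 0.0526). Every CIE value lay above every Ctrl value, as was so for 0.953% of all probesets at 8 h. Of the genes for glutathione use, 0 of 26 were called at either time. Mgst1, a microsomal glutathione transferase, and Abcc4, a transporter that exports conjugates, had the lowest adjusted p among them at 8 h, with changes of 0.31 (SE 0.0757, adjusted p = 0.0666) and 0.312 (SE 0.0809, adjusted p = 0.0904).

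The detoxification list had 12 of 14 genes measured alone and 1 call at 0 h, a fall of Aldh7a1, an aldehyde dehydrogenase, by 0.189 (SE 0.0448, adjusted p = 0.00917; blocked by set 0.0785; 0.0378 without CIE replicates 5, 67 and 72). The genes that supply NADPH (9 measured) and those of heme and iron handling (8 measured) had 0 calls at 0 h and 8 h. Of all genes at their brightest probeset, 1.93% were called at 0 h and 0.0824% at 8 h. Of 20 genes of the ATF4 pathway, the amino acid stress response that also drives Slc7a11, 1 rose at 0 h and 0 at 8 h. It was Cebpb, a transcription factor, which read 9.206 to 9.549 in CIE and 8.58 to 9.051 in Ctrl mice at 0 h (change of 0.581, SE 0.0723, adjusted p = 2.27e-06; 0.000705 without CIE replicates 5, 67 and 72). The median change at 8 h was 0.104 over the ATF4 list (16 of 20 genes above 0), 0.0581 over glutathione use (19 of 26), 0.0697 over NADPH supply (8 of 9), 0.0496 over heme and iron (8 of 8), 0.0177 over thioredoxin and peroxide (12 of 18), 0.0245 over detoxification (8 of 12) and -0.0262 over the regulators of Nrf2 (6 of 15), against 0.00351 over all genes. At 72 h and 7 d no gene of these lists was called.

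Several genes of these lists also fell between 0 h and the late times within CIE mice, where 1.88% of all genes fell and 2.01% rose at their brightest probeset. Of glutathione use 4 of 26 genes fell, among them Mgst1 (change of -0.654, SE 0.0608, adjusted p = 1.16e-09) and Gstm1, a cytosolic glutathione transferase (change of -0.454, adjusted p = 4.63e-05). Abcc4, another of the 4, had a change of -0.282 (adjusted p = 0.00442; blocked by set 0.0114), and without CIE 0 h replicates 5, 67 and 72 only Mgst1 and Gstm1 of the 4 passed. Of detoxification 2 of 12 fell, Aox1, an aldehyde oxidase (change of -1.05, SE 0.108, adjusted p = 8.72e-09), and Ephx1, the microsomal epoxide hydrolase (change of -0.444, adjusted p = 0.000109). Mgst1, Gstm1 and Aox1 were called within Ctrl mice too, with changes of -0.515, -0.658 and -1.36. Maff (change of -0.603, adjusted p = 0.000369) and Txnip (change of -0.642, adjusted p = 1.67e-05) fell within CIE mice, as did 5 of 20 genes of the ATF4 list (4 without these 3 mice), among them Cebpb (change of -0.687, adjusted p = 1.16e-09) and Ddit4 (change of -0.845, adjusted p = 8.05e-05). Sesn1, a sestrin (change of -0.219, adjusted p = 0.00406; blocked by set 0.0114), and Blvrb, a biliverdin reductase (change of -0.332, adjusted p = 0.000285), fell too, and neither passed without the 3 mice (adjusted p of 0.0399 and 0.0863). The called rise among these lists was that of Slc40a1, the iron exporter ferroportin (change of 0.339, SE 0.083, adjusted p = 0.00788; blocked by set 0.0178).

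The probesets of a gene did not always vary together between mice. Over the 45 arrays, after each group's mean was subtracted, Srxn1 1426875_s_at, 1451680_at and 1425351_at had Pearson correlations of 0.577 to 0.804 with each other, while 1419942_at, the one whose change at 8 h was near 0, had correlations of -0.187 to 0.0305 with them. The correlation was 0.449 between both Gclc probesets and 0.38 between both Gclm probesets, and it was 0.104 for Gsr, -0.136 for Nfe2l2 and -0.377 for Slc7a11. Among the Txnrd1 probesets it was -0.405 (1421529_a_at with 1424486_a_at), 0.184 (1421529_a_at with 1424487_x_at) and 0.487 between both dim ones. Arrays share dissection, hybridization set and normalization, and these values are descriptions.

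The genes most like the 3 members with a call were found by the same correlation, with each gene at its brightest probeset. For Srxn1 these were Ncs1 (0.863), Pptc7 (0.837), Mgll (0.813), Mprip (0.803) and Rhot2 (0.796). For Osgin1 they were Hs6st1 (0.69), Cab39l (0.672), Lrrc8a (0.668), Gabra6 (0.661) and Spry1 (0.655), and for Nqo1 they were Cckar (0.766), Srbd1 (0.758), Tceanc2 (0.755), Hps5 (0.741) and Zcchc7 (0.74). None of these 15 genes belongs to the members or to the lists above. These values describe how the genes vary together between mice of a group and nothing more.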

How the data were processed

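RNA of 45 nucleus accumbens samples was hybridized to Affymetrix mouse genome arrays, 1 per mouse, and groups came from the sample labels. The authors deposited 1 value per probeset and array on the log2 scale, computed with RMA: background correction and quantile normalization within each hybridization batch, a second quantile normalization over all arrays, and ComBat for the batches that remained. Such steps can shrink differences tied to batch, and arrays have no count depth, so that their number limits the precision. The methods of the study give 6 mice per group, and 3 groups hold 5 arrays here.

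The deposited log2 values were used as they are, without a filter. Linear models with the 8 group means as coefficients were fitted to all 45037 probesets with limma 3.58.1 in R 4.3.3 (default empirical Bayes settings, no covariate), and p values were adjusted over all probesets of each contrast by the Benjamini-Hochberg method. The threshold was 0.01, as in the methods of the study. The fit was checked on simulated data. The labels name no batch, so 6 hybridization sets of 6 to 8 arrays were inferred from at least 5 equal values (tolerance 2e-08) shared by arrays. Each holds at most 1 array per group, and Ctrl 0 h replicate 20 is in none, so that it adds nothing to fits with the sets as a block.

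Symbols came from the platform annotation, in which 34945 probesets have 1 symbol, 932 several and 9160 none. RefSeq tables of GRCm38.p6 held 34741 of the first and gave positions and promoter windows. Every member probeset is accounted for, each member is described at its brightest probeset (highest mean over all arrays) and at others that pass or disagree, and genes of the other lists stand at their brightest probeset. Of the listed genes, Prdx1, Prdx5, Prdx6, G6pdx, Ftl1, Akr1b3 and Por had no probeset with that symbol alone that was used. Replicate numbers differ between all mice and pair no arrays. The members and lists were chosen with earlier results of these data known. Other settings were a further quantile normalization, centring on array medians, trend and robust eBayes, array weights, the sets as a block, the arrays of 1 time alone, the brightest probesets alone, dim probesets left out, each array left out in turn and, after the marker values had been seen, CIE 0 h replicates 5, 67 and 72 left out together.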

Additional observations from a re-analysis of the deposited data

Results flagged for a closer look

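For 14 probesets, the brightest of each gene and the others described, each of the 8 groups was searched for a mouse standing apart from its group by Dixon's criterion, 112 groups in all. In 6 of them 1 mouse stood apart, where chance gives about 1 in 20. Nfe2l2 1416543_at read 9.1 in CIE 72 h replicate 63, against 8.73 to 8.81 in the others. Txnrd1 1421529_a_at read 10.57 in CIE 8 h replicate 25, against 10.77 to 10.8. Hmox1 1448239_at read 6.18 in CIE 8 h replicate 51, against 6.57 to 6.67. Gclm 1439050_at read 9.64 in CIE 7 d replicate 13, against 9.35 to 9.42. Srxn1 1451680_at read 9.12 in Ctrl 0 h replicate 78, against 9.4 to 9.48. Slc7a11 1443536_at read 5.88 in Ctrl 7 d replicate 62, against 6.26 to 6.45.

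The effect of CIE on Osgin1 differed between times in limma's test of the difference itself. The effect at 7 d minus that at 0 h was -0.441 (adjusted p = 0.00845), and the effect at 8 h minus that of the later times was 0.509 (adjusted p = 0.00152).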

How the results depend on the processing

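Counts of member probesets called at 72 h and 7 d were 0 under every setting run. At 0 h the count was 1, and it was 0 with array weights, with the hybridization sets as a block, with the arrays of 0 h alone or with adjustment over the 4 times together, 2 at a threshold of 0.05, and 0 to 1 with each array left out in turn. At 8 h it was 1, and it was 2 with array weights (Slc7a11 1420413_at then had an adjusted p of 0.00931) or a threshold of 0.05, 0 with dim probesets left out (Osgin1 is then not tested) or with the arrays of 8 h alone, and 0 to 1 with each array left out. For the effect at 7 d minus that at 0 h, the count of 1 was 0 with trend and robust eBayes or the sets as a block. For the late times minus 0 h, the count of 5 within CIE mice was 7 at a threshold of 0.05, 6 with array weights, 4 with the sets as a block (Nqo1 lost, adjusted p = 0.0133) or dim probesets left out, 3 without CIE 0 h replicates 5, 67 and 72 and 3 to 5 with each array left out, and that of 0 within Ctrl mice was 1 at a threshold of 0.05. For 8 h minus 0 h within CIE mice, the count of 0 was 1 at a threshold of 0.05 and 0 to 1 with each array left out. In the F test the count of 2 was 1 with the sets as a block, where Srxn1 1426875_s_at had an adjusted p of 0.0251. With the arrays of 1 time alone, the adjusted p of Srxn1 at 0 h was 0.0987 and that of Osgin1 at 8 h was 0.115, with unchanged changes and fewer arrays behind the spread.

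Gclc 1424296_at at 0 h turned from -0.0557 to 0.0553 (adjusted p = 0.833) without CIE 0 h replicates 5, 67 and 72, and the cause was not tested. Among single member results, 958 kept their side of the threshold and did not turn, and 32 were no longer past it. Another 3 newly passed (the third being Gclm 1439050_at with array weights, late times minus 0 h within CIE mice, adjusted p = 0.00459) and 1 turned. A turn was counted only if the change was at least its SE, so the 958 include smaller changes of sign. No paired analysis was possible by replicate number because every mouse has a number of its own; the inferred sets, which match arrays of different groups, were used as a block instead. Osgin1 had a mean level above that of 33.8% of probesets, Hmox1 39.7% and Slc7a11 1420413_at 42.3%, and the number of arrays limits the precision.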
